A study of Rattus norvegicus with 2 samples.

Results

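RNA from rat urine was examined at long database loci that lie between annotated genes. A locus was taken when its entries carried the NONRATG or NONRATT identifiers of the NONCODE catalogue of noncoding RNA, when no number-only gene ID and no assembled XLOC name shared its position, and when its end minus its start was at least 500 bp. Of the 32435 loci in the deposited table, 9588 met this rule, and they held 22859 entries (10019 NONRATG genes and 12840 NONRATT transcripts). At 7937 loci there were 2 entries, and 1651 loci had 3 or more, with a maximum of 26. The median span was 1664.5 bp and the central 50% of spans ran from 786 to 7037 bp. Of the 76 loci less than 10 bp above the span limit, 32 were detected in UUO and 6 in WT urine, and of the 98 loci up to 10 bp below it, which were left out, 31 and 5.

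The animals were Sprague Dawley rats of 8 weeks, and there was 1 urine library in each of 2 groups. In the UUO group the right ureter had been tied for 2 weeks (unilateral ureteral obstruction, a surgical model of kidney scarring), and the group labelled WT had sham surgery. Urine of both groups was drawn from the ureter by catheter, and how many rats contributed to a library is not stated. No difference below therefore has a replicate check, and no p-value was computed. Every direction rests on reading the abbreviated condition names of the table as these groups.

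A long noncoding RNA is a transcript without a recognised protein product. Many such RNAs are made from the stretches between protein-coding genes, often in few copies per cell, and some act on genes close to where they are transcribed. A catalogue entry in such a stretch can also be the unrecognised end of a neighbouring gene or a gene that an older annotation had missed. In urine, RNA comes from shed cells of the kidney and urinary tract, from blood and from vesicles, so less RNA per cell and fewer cells of a type cannot be told apart in a bulk library.

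The sequences shown first belong to the annotated RNAs and promoters that lay closest to detected loci, since the neighbours give the loci their place in the genome. Of the 9588 loci, 16 lay within 1 kb of an annotated microRNA and 7 of them were detected, that is, had a summed FPKM of at least 1 in either library. FPKM counts fragments per kilobase relative to all mapped fragments, and it was summed over the entries of a locus. The mature microRNAs beside 4 of these loci are printed from RefSeq (GRCr8), with the seed, bases 2 to 8, in capitals.
rno-miR-193a-5p, chr10:65170336-65170357, plus strand: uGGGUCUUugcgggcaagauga
rno-miR-193a-3p, chr10:65170370-65170391, plus strand: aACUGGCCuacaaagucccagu
rno-miR-675-5p, chr1:207161800-207161821, minus strand: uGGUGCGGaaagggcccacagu
rno-miR-675-3p, chr1:207161766-207161786, minus strand: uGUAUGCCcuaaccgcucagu
rno-miR-1249, chr7:117955547-117955568, minus strand: aCGCCCUUcccccccuucuuca
rno-miR-3569, chr1:94969072-94969092, plus strand: gGAGGACAgcagacucagguc
No seed was shared among these 6 microRNAs. All 302 microRNA entries of the table were listed at 0 in both libraries, and the values below are those listed for the long loci beside them. Whether these values include reads of the transcripts that carry the microRNAs was not tested. NONRATG006012, 387 bp from the miR-193a gene, had an FPKM of 22.9 (31 fragments) in WT and 1.38 (2 fragments) in UUO urine. NONRATG001515, 396 bp from miR-675, the microRNA carried by the imprinted lncRNA H19, was listed at 0 in WT and at 3.48 in UUO urine. Its 11580 bp held 97 UUO fragments. NONRATG028004, 295 bp from miR-1249, had 8.74 in WT and 5.72 in UUO urine, and NONRATG002644, 482 bp from miR-3569, had 8.44 and 13.1. The other 3 detected loci, NONRATG014562, NONRATG001052 and NONRATG016217, were listed at 0 in WT and at 1.72, 1.10 and 1.33 in UUO urine. NONRATG014562 and NONRATG001052 rested on 2 UUO fragments each, and for NONRATG016217 fragments were not recovered.

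The highest loci on the 5′ side of a gene start, within 250 bp of it and detected in both libraries, adjoined Bmpr2, a receptor for bone morphogenetic proteins, and Glrx5, a mitochondrial protein of iron-sulfur cluster assembly. The 250 bases before each gene start are printed from RefSeq (GRCr8), and capitals mark the CCAAT box in either orientation (CCAAT or ATTGG).
Bmpr2, chr9:68686566-68686815, plus strand: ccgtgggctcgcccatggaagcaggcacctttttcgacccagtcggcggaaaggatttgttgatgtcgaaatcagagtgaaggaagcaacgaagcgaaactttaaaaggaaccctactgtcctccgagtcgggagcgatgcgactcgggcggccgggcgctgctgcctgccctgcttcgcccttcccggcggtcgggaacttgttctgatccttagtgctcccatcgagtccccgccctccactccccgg
Glrx5, chr6:129752944-129753193, plus strand: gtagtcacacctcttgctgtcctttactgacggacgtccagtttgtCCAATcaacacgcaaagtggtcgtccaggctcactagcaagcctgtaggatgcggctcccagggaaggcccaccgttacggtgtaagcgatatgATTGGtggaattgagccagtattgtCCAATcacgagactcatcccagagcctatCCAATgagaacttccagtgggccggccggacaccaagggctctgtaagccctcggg
The Glrx5 window held 4 CCAAT letters and the Bmpr2 window 0. The motif stood in 34.0% of 33469 RefSeq promoter windows of the same length and in 31.4% of the 1182 belonging to genes nearest to, and within 5 kb of, a detected locus. The CAGACA motif of Smad3, read on both strands (CAGACA or TGTCTG), was in neither window shown, in 17.2% of all windows and in 12.4% of those near detected loci. NONRATG030323, 91 bp from Bmpr2, had 78.1 FPKM in WT and 80.3 in UUO urine, while Bmpr2 itself had 6.28 and 7.26. Both locus and gene differed little between the libraries. NONRATG026178, 128 bp from Glrx5, had 11.5 in WT and 77.4 in UUO urine, whereas Glrx5 had 111 and 59.5, so locus and gene went opposite ways. Erythroid genes differed between the libraries in the same direction as that locus (Hbb, a haemoglobin chain, 877 FPKM in WT and 54777 in UUO urine, and Alas2, an enzyme of haem synthesis, 0.317 and 414), and their part in it was not tested.

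At a summed FPKM of at least 1, WT urine yielded 1608 loci (16.8%) and UUO urine 3552 (37.0%). Both libraries detected 1330 loci, UUO alone 2222, WT alone 278 and neither 5758. Among the loci detected in a library, the median was 7.85 FPKM in WT and 2.24 in UUO urine. At 10 FPKM or more there were 686 loci in WT and 353 in UUO urine, and at 100 or more 40 and 19. The loci took 4.07% of the summed FPKM of the WT table and 4.83% of the UUO table. UUO urine therefore listed more loci, and WT urine more loci of high level. Short database loci between genes, of under 500 bp, were detected less often, with 7.05% of 2284 in WT and 24.7% in UUO urine.

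A difference was computed as log2(FPKM + 1) in UUO minus WT, and a size of at least 1 (2-fold) was counted among the 3830 loci detected in either library. By this count 2178 loci were higher in UUO urine, or 56.9%, where the same count over all loci of the table gave 53.5%, and 732 were lower, or 19.1%, against 20.4%. The shares were thus close to those of the whole table. For annotated genes with number-only IDs the shares were 24.9% higher and 36.6% lower. Of the changed loci 74.8% were higher, against 72.4% over all loci of the table. This split moved with the scaling of the libraries, to 87.8% with equal FPKM sums (84.7% over all loci), to 91.1% with the median ratio of annotated genes set to 1 (88.7%) and to 98.2% with equal upper quartiles (97.6%). It turned below 50% when low values weighed less, to 32.3% with a limit of 5 FPKM and to 23.3% with a pseudocount of 10. Of the 2178 higher loci, 1997 were listed at 0 in WT urine and 74 were detected in both libraries. Of the 732 lower loci, 542 were detected in both and 51 were listed at 0 in UUO urine.

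**Figure D1:**
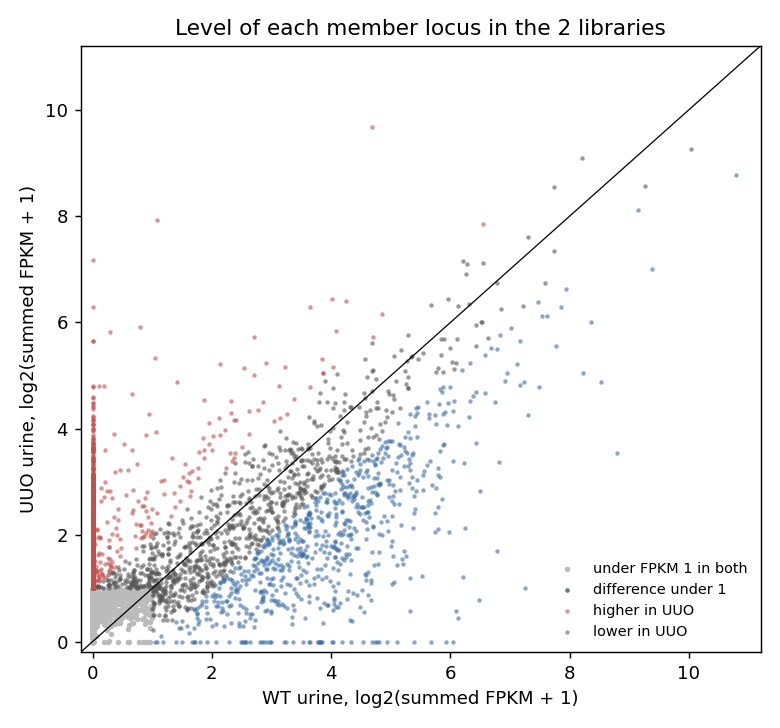
Each point is 1 of the 9588 loci, with log2(summed FPKM + 1) in WT urine on the x axis and in UUO urine on the y axis, and the line marks equal values. Most of the 2178 higher loci (red) stand on the y axis at 0 in WT, while the 732 lower loci (blue) form a band below the line.

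Among the 1330 loci detected in both libraries, the median difference was -0.73 on the log2 scale, with the central 50% between -1.47 and -0.04. The 7218 annotated genes detected in both libraries had a median of -0.81. When UUO values were rescaled by the median ratio of these genes, a shift of 0.89 on the log2 scale, the median of the loci became -0.088. Relative to annotated genes the median of the loci was thus close to 0, and with equal upper quartiles it was 1.42. Levels of the 1330 loci ranked alike in part in the 2 libraries (Spearman rho 0.59 across loci, which are not independent replicates).

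Fragment numbers behind these values were recovered at the 7936 loci with exactly 1 NONRATG and 1 NONRATT entry, because there the summed FPKM rose in whole steps. With a normalising total of 2116000 fragments in WT and 2444000 in UUO urine, all values under 12 fragments came within 0.1 of a whole number (355 in WT, 3951 in UUO). A fragment was worth 1.27 FPKM in WT and 1.26 in UUO urine at a locus of 500 bp, and 0.165 and 0.145 at 3000 bp, so the limit of 1 FPKM asked for a different number of fragments at each span. Copies made by PCR cannot be told apart in these files.

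At loci with any fragment, the median number of fragments depended on span in UUO urine much more than in WT urine. The share of loci with a fragment was higher in the longest than in the shortest class in both libraries. In UUO urine 42.2% of the 1691 loci of 500 to 700 bp had a fragment, 89.5% of the 1301 loci of 1500 to 3000 bp and 100% of the 549 loci of 20 kb or more. The median of loci with any fragment went from 2 through 5 to 53 in these classes. Per kilobase of effective length, that is span less 176 bp, the UUO median over all loci stayed between 1.36 and 2.21 in every class from 700 bp on. In WT urine 6.86%, 28.4% and 40.6% of the loci in the same 3 classes had a fragment, with a median of 21, 28 and 21 fragments where there was any. A UUO locus thus often had few fragments and a WT locus either none or many. Among loci with any fragment, 39.3% had 1 to 3 in UUO urine and 7.29% in WT urine.

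**Figure D2:**
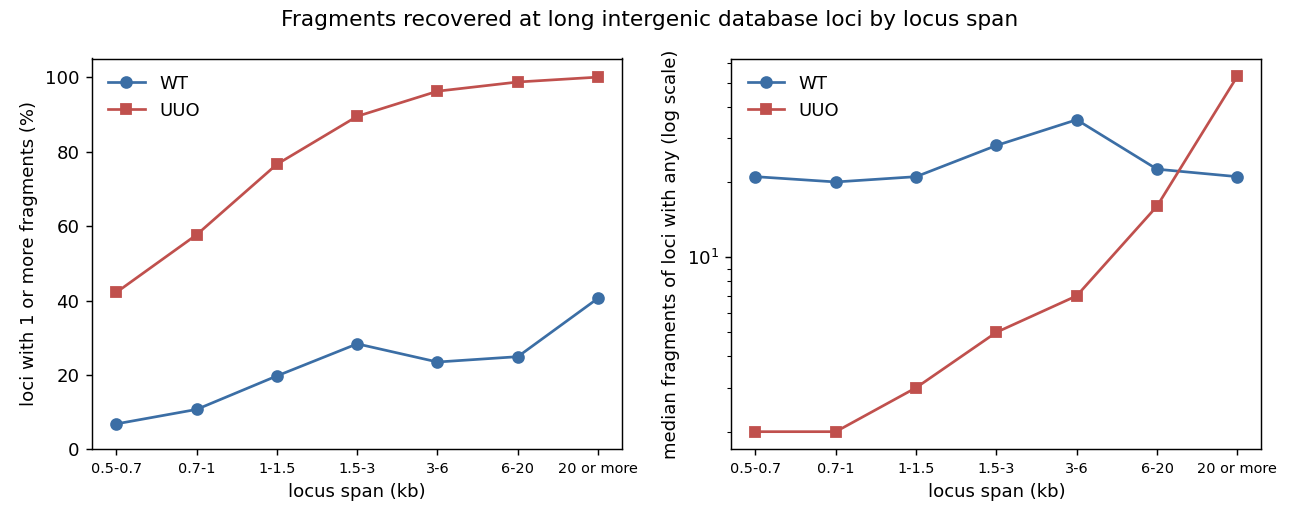
The left panel gives the percentage of loci with 1 or more recovered fragments and the right panel the median number of fragments at those loci (log scale), both by locus span in kb, for WT (circles) and UUO (squares). The UUO share climbs from 42.2% to 100% and its median from 2 to 53, while the WT median stays between 20 and 35.5.

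Many of the loci called higher had low counts. Of the 1666 loci with exactly 1 entry of each kind that were detected in UUO urine and listed at 0 in WT, 720 (43.2%) had 3 or fewer UUO fragments, the median was 4, and 378 had 10 or more. The 49 loci detected in WT and listed at 0 in UUO urine had a median of 15 WT fragments, and 7 of them had 3 or fewer. When the count was limited to these loci of 1 entry of each kind and to at least 10 fragments in either library, 434 were higher and 46.3% of the changed loci were higher, where leaving out loci of 3 or more entries alone gave 76.5%. At least 10 fragments were present at 1249 loci in WT, at 2189 in UUO and at 904 in both. Of the 578 loci with 30 or more WT fragments, 99.0% also had a fragment in UUO urine, against 67.9% of the 6441 loci with none in WT. The median spans of these 2 classes were 2546.5 and 1047 bp. Since the UUO share with a fragment rose with span, this contrast was not separated from span.

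Some of the highest loci by mean level lay where a more recent annotation places coding genes. NONRATG002787 (chr1:102527132-102528984 in rn5, 6 entries) had 1759 FPKM in WT and 437 in UUO urine, a log2 difference of -2.01. Its neighbours were Gys1, the muscle glycogen synthase, 1086 bp away with 6.49 and 5.51 FPKM, and the apoptosis gene Bax. In GRCr8, RefSeq places Ftl1, the ferritin light chain, between these genes, whereas the deposited table lists Ftl1 on chromosome 5 with 1.73 in WT and 13.8 in UUO urine. NONRATG004253 (chr10:13903883-13905755, 11 entries), with 213 in WT and 371 in UUO urine, lay 100 bp from Ndufb10, a subunit of respiratory complex I, and RefSeq places the ribosomal protein gene Rps2 in that stretch, while the table has Rps2 on chromosome 3. NONRATG024557 (chr5:155512801-155514152), with 293 and 548, lay between Gpn2 and Zdhhc18, where RefSeq has Sfn, the epithelial 14-3-3 sigma protein, which the table does not list. For the last 2 loci the flanking genes do not keep a comparable distance in GRCr8, so the match by gene order is less sure than for Ftl1. For these loci the annotation goes against the label of long noncoding RNA, and they are described here by their position only.

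RefSeq also places coding genes in the stretches of the other loci of highest mean level. Whether reads of those genes entered the values of the loci was not tested. NONRATG004572 (chr10:48664183-48665071) had 1046 in WT and 611 in UUO urine, in a stretch between Pigl and the channel gene Trpv2 that also holds Ubb, a polyubiquitin gene, in RefSeq. The deposited table lists Ubb on chromosome 12, at 0 in both libraries. NONRATG000073, 11171 bp from Samd3, had 613 and 379 FPKM, in a stretch where RefSeq places L3mbtl3 and Tpt1l3 among others. NONRATG016215 (chr2:243884272-243886089) had 563 and 278, and lay 176 bp from the 3′ side of Gclm, a subunit of the enzyme that starts glutathione synthesis, which had 819 and 311. Locus and gene were both lower in UUO urine here. NONRATG009812 had 669 and 127 between Nsun7 and Rbm47, a stretch with the ribosomal protein copy Rps23l1 in RefSeq, and NONRATG013380 had 212 and 161 between H1f1 and the iron regulator Hfe, among histone genes.

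RefSeq coding genes between the flanking genes were counted for the stretches of 20 kb or less whose flanks keep their order and a comparable distance in GRCr8, a count made after the highest loci had been seen. A coding gene lay between the flanks for 16 of 35 loci with 10 FPKM or more in both libraries (45.7%), for 111 of 364 other detected loci (30.5%) and for 94 of 330 undetected loci (28.5%). The median stretch measured 11645, 10904 and 11695 bp in these classes. Over stretches of any length the shares were 70.5%, 73.0% and 71.0%, with RefSeq lncRNA genes present for 57.8%, 63.1% and 68.6%.

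Among loci detected in both libraries, the greatest difference towards UUO urine was that of NONRATG009106 (chr13:54201416-54214692, 3 entries), with 1.11 FPKM in WT and 242 in UUO urine, a log2 difference of 6.85. Nuak2, a kinase related to AMPK, was the nearest gene at 23672 bp, with 46.3 and 22.4, and RefSeq places Tmcc2 in the same stretch. NONRATG001242, a locus of 738844 bp with 5 entries, had 24.8 in WT and 820 in UUO urine, of which the entry NONRATT006223 alone held 99.8% in UUO. NONRATG010942, 63849 bp from the ferritin receptor gene Scara5, had 1.06 and 39.2, and Scara5 was listed at 0 in both libraries. At these loci of 3 or more entries fragments were not recovered.

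The loci with recovered fragments in this group had 2 to 11 in WT urine. NONRATG013601 (2 and 36 fragments) had 1.66 FPKM in WT and 28.4 in UUO urine, and NONRATG028383 (11 and 133 fragments) had 3.38 and 36.5. NONRATG029731, 25575 bp from Tpbg, a cell surface glycoprotein gene, had 5.51 and 51.8. NONRATG004477 (chr10:43008768-43011054), 471 bp from the 3′ side of Galnt10, an enzyme of mucin-type glycosylation, had 1.09 (5 fragments) and 14.3 (74 fragments), and Galnt10 had 7.28 and 16.1. The locus and its gene were both higher in UUO urine. NONRATG026954, 1477 bp from the ribosomal protein gene Rpl3, had 2.66 and 22.3, opposite to Rpl3, which had 1656 and 678.

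In the other direction, NONRATG004553 (chr10:46835479-46836057) had 151 FPKM (143 fragments) in WT and 1.02 (1 fragment) in UUO urine, a log2 difference of -6.23. The exact 95% Poisson intervals, which cover counting error only, were 121 to 168 and 0.0253 to 5.57 fragments. It lay 1538 bp from the lipid reductase gene Dhrs7b, which had 31.2 and 8.88. NONRATG032138 (chrX:111679964-111680525) had 444 and 10.6, in a long stretch beside Gucy2f, a guanylate cyclase of photoreceptors that was listed at 0 in both libraries. NONRATG010275, 46823 bp from the purine synthesis gene Ppat, had 109 and 2.25 FPKM. The WT values of these 3 loci rested on 143 to 407 fragments.

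Some of the lower loci lay directly behind a gene that was also lower. NONRATG008665 (chr13:74076456-74077827), 51 bp from the 3′ side of the stress-response gene Niban1, had 74.9 in WT and 3.42 in UUO urine, and Niban1 had 308 and 8.23. NONRATG015254 (chr19:68358608-68359405), 65 bp from the 3′ side of Exoc8, a subunit of the exocyst, had 72.8 and 1.32, and Exoc8 had 63.4 and 13.9. NONRATG009854, 5074 bp from the extracellular superoxide dismutase gene Sod3, had 39.1 and 1.28, with 7.08 and 3.45 for Sod3. NONRATG012462, 3205 bp from the transcription factor gene Thap1, had 31.6 and 1.12, with 15.8 and 3.63 for Thap1. At NONRATG014237 (45.1 and 1.35) the nearest gene, Commd10, was far off at 175492 bp and went the opposite way (2.23 and 13.2). In the stretches of several lower loci RefSeq places copies of abundant genes, such as Btf3-ps15 for NONRATG004553, Rpsal1 for NONRATG009854 and Rpl23al9 for NONRATG008665. The flanks of NONRATG004553 do not keep a comparable distance in GRCr8, and the stretch of NONRATG009854 measured 162795 bp. Over stretches of any length with comparable flanks, RefSeq places a pseudogene for 49.8% of all loci and a coding gene for 71.7%. Whether reads of near-identical genes entered these values was not tested, and the values are uncertain in that respect.

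Loci listed at 0 in WT urine reached up to 143 FPKM in UUO urine. That value was of NONRATG007787 (chr12:40031163-40031907, 198 UUO fragments), 101 bp from Hcar2, the niacin receptor gene, which was listed at 0 in both libraries. NONRATG027559 (108 fragments) had 77.2, and its nearest gene in the deposited table was Cnot2 at 143558 bp. In its stretch RefSeq places the coding gene Myrfl and pseudogenes of abundant genes, such as Rpl12a-ps1. NONRATG017173 (chr2:222240359-222241356, 99 fragments) had 49.4, and lay 2798 bp from the poly(A) polymerase gene Tent5c, which was itself higher in UUO urine, with 2.68 in WT and 114 in UUO. NONRATG014817 (42 fragments) had 49.2 near Abcb10, a mitochondrial transporter gene with 28.6 and 25.05. NONRATG017977 had 27.1 near the Polycomb gene Ring1, and NONRATG003818 had 26.5 near Dtx4. At the 5 of these loci with recovered fragments, 3 fragments, the floor taken for a count of 0, were worth 1.63 to 3.57 FPKM in WT urine, for counting error only.

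Loci listed at 0 in UUO urine reached lower values in WT. NONRATG008703 (chr13:78794008-78794580, 61 WT fragments) had 65.1 FPKM near Tdrd5, a germ cell gene with 0 in WT and 1.05 in UUO urine. NONRATG023139 (77 fragments) had 59.8 near Ugcg, the glucosylceramide synthase gene, and NONRATG019411 (chr3:167444812-167445330, 41 fragments) had 49.8 at 716 bp from the 3′ side of Acot8, a peroxisomal thioesterase gene with 33.9 in WT and 8.39 in UUO. NONRATG015359 had 41.1 (51 fragments), NONRATG030262 33.3 and NONRATG007457 29.6 (124 fragments), the last 13265 bp from the glycosyltransferase gene B3gnt5, which had 20.6 and 0.138. The nearest genes of 5 of the 6 loci were lower in UUO urine, where 61.1% of all detected annotated genes were. Of the 6 loci listed at 0 in WT, the nearest gene was higher in UUO urine for 2, lower for 3 and at 0 in both libraries for 1.

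**Figure D3:**
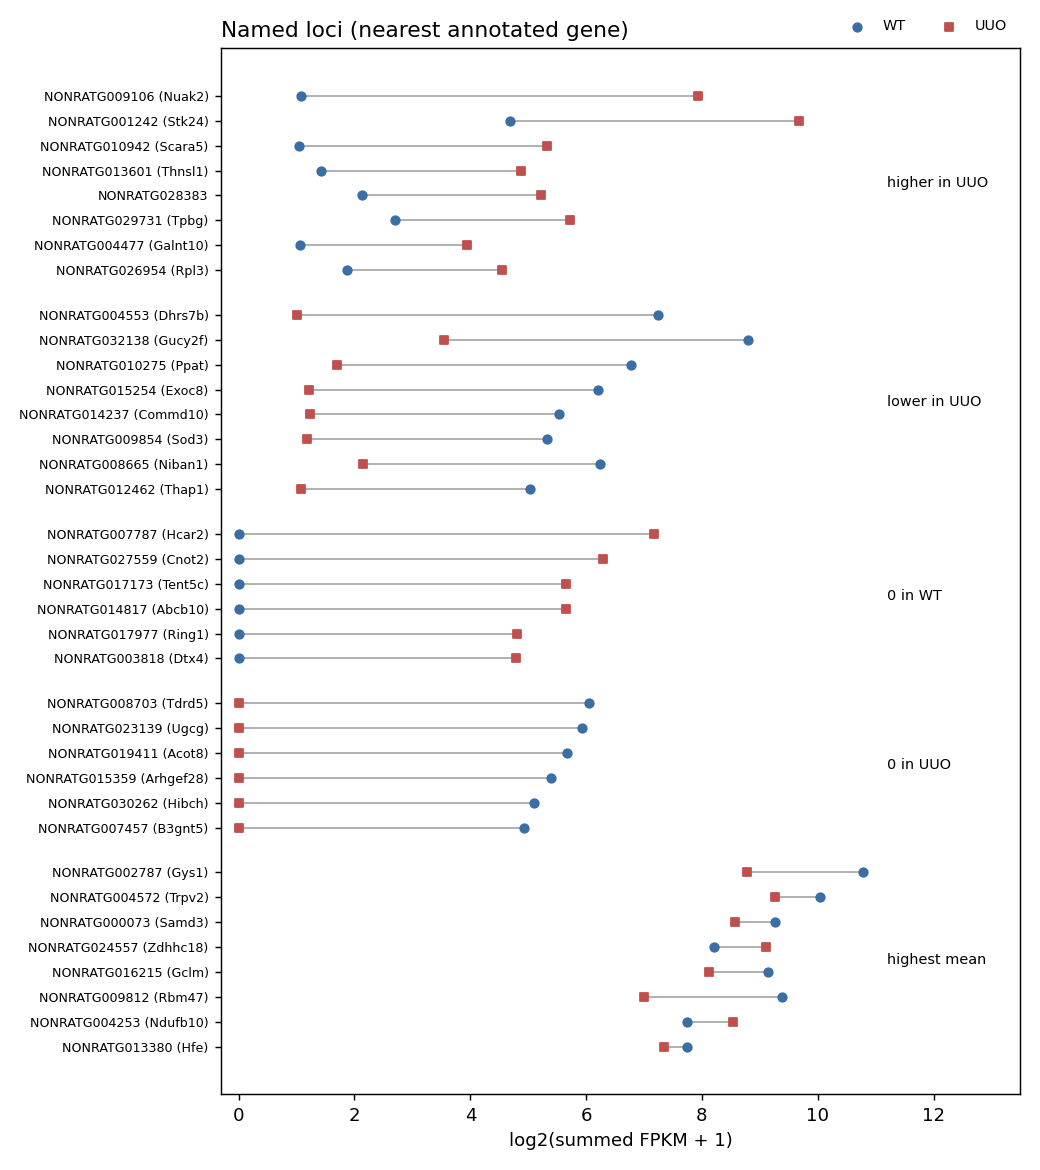
Each line joins log2(summed FPKM + 1) in WT (circles) and UUO urine (squares) for the loci of greatest difference in each direction, those listed at 0 in a library and those of highest mean level, with the nearest annotated gene in brackets. The lower group starts from WT values of 31.6 to 444 FPKM and the higher group from WT values of 1.06 to 24.8.

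Detection fell with distance from annotated genes in both libraries. Of the 1328 loci within 1 kb of a gene, 55.8% were detected in UUO and 28.0% in WT urine, and of the 1947 loci more than 100 kb away 24.1% and 8.83%. The classes between, 1 to 5 kb, 5 to 20 kb and 20 to 100 kb, had 48.8%, 35.5% and 31.8% in UUO and 23.5%, 17.1% and 13.1% in WT urine. Median spans of these 5 classes ranged from 1417.5 to 2035 bp. Over all loci the median distance was 19685.5 bp, and 3315 of the 3830 detected loci had a gene within 100 kb, the window that the study used for neighbours.

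Detection also differed by the side of the gene. For 2127 of the loci within 5 kb of a gene the side could be read from gene order and the RefSeq strand, and 1469 lay on the 3′ side and 658 on the 5′ side. Where the gene was itself at 1 FPKM or more in both libraries, loci within 200 bp of its 3′ side were detected in 125 of 160 cases (78.1%) in UUO and in 78 (48.8%) in WT urine. On the 5′ side the numbers were 44 of 104 (42.3%) and 17 (16.3%). From 1 to 5 kb the 3′ side had 59.7% and 33.4% and the 5′ side 46.8% and 17.6%. Where the gene was under 1 in both libraries, detection within 5 kb was alike on both sides in UUO urine, with 35.3% on each, and in WT urine it was 12.1% on the 3′ and 19.9% on the 5′ side. Loci of the 3′ side were shorter (median span 1408 bp within 5 kb, against 1848 bp). Whether a locus and its gene shared a transcript was not tested.

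**Figure D4:**
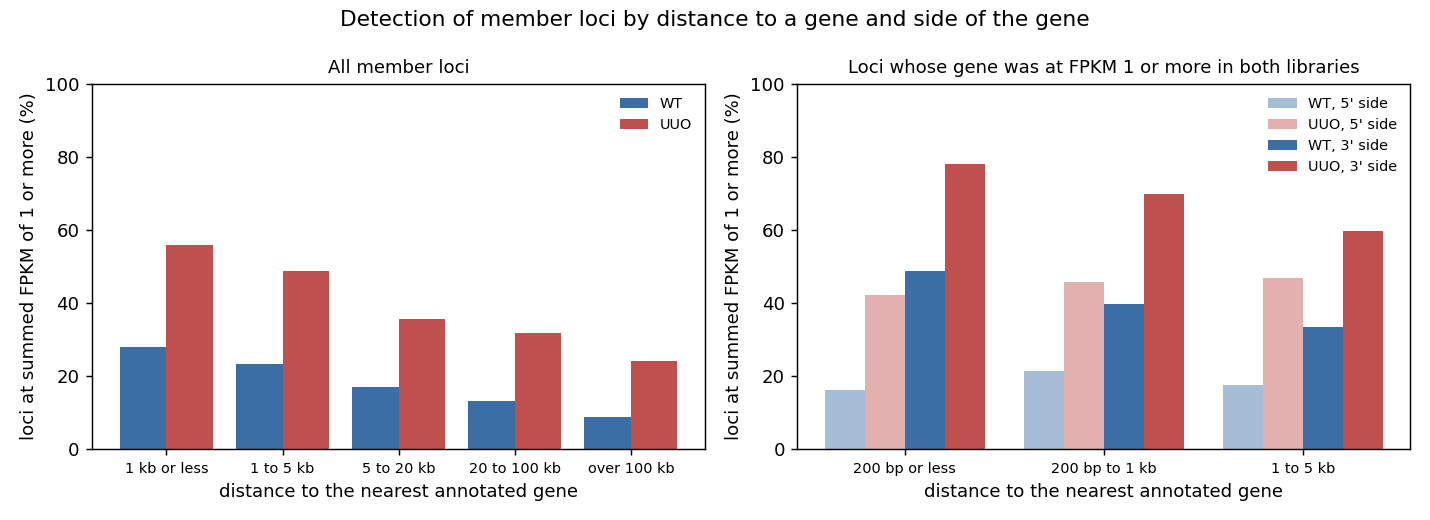
The left panel gives the percentage of loci at 1 FPKM or more in WT and UUO urine by distance to the nearest annotated gene. The right panel gives it for loci near a gene detected in both libraries, split by the side of the gene, and the 3′ bars stand above the 5′ bars at every distance, with 78.1% against 42.3% in UUO urine within 200 bp.

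Levels of a locus and its gene went together only in part. Within 200 bp of the 3′ side, over the 75 loci where all 4 values were at least 1, the Spearman rho of level was 0.43 in UUO and 0.35 in WT urine, and that of the UUO-minus-WT differences 0.19. Over the 273 loci within 1 kb on either side the rho of the differences was 0.20, and from 1 to 5 kb it was 0.03 over 214 loci. These are descriptions across loci that share libraries and, in part, genes. Among the 1788 changed loci with a detected nearest gene within 100 kb, gene and locus went the same way for 47.4%. The side of 50% on which this share fell depended on the processing, as it was 65.2% with a limit of 5 FPKM and 59.4% with the median ratio of annotated genes set to 1. Of 1265 higher loci 37.8% had a gene with a higher value, and 38.9% of all 9853 detected annotated genes were higher. Of 523 lower loci 70.6% had a gene with a lower value, where the share of all detected genes was 61.1%. Within 1 kb the shares were 42.0% of 324 higher and 77.9% of 145 lower loci.

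**Figure D5:**
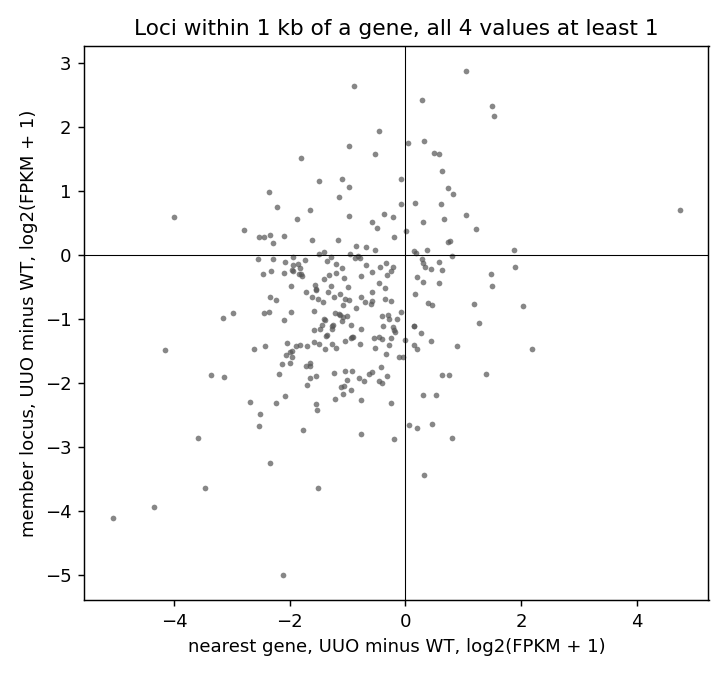
Each point is 1 of the 273 loci within 1 kb of a gene for which all 4 FPKM values were at least 1, with the difference of the gene (UUO minus WT, log2(FPKM + 1)) on the x axis and that of the locus on the y axis. The points spread widely around a weak common trend (Spearman rho 0.20), with NONRATG008665 beside Niban1 at the lower left.

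Loci nearest to genes known from kidney scarring were counted with fixed gene lists. Of all 16329 annotated genes with a symbol, 4850 were the nearest gene within 100 kb of 7635 loci. Of 18 fibrosis and matrix genes in the list used here, 4 were the nearest gene within 100 kb of 7 loci, and 2 of these loci were detected, 1 higher and 1 lower in UUO urine. The lower one, NONRATG030379, 19556 bp from the fibronectin gene Fn1, had 14.1 FPKM (21 fragments) in WT and 2.50 (4 fragments) in UUO urine, while Fn1 had 0.921 and 6.33. Locus and gene went opposite ways. The higher one, NONRATG006174, 7333 bp from the collagen gene Col1a1, was listed at 0 in WT and at 1.94 in UUO urine, with 9.20 and 13.6 for Col1a1.

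Of the inflammation list, 9 loci had a member as nearest gene and 2 were detected, both beside Socs3, a feedback inhibitor of cytokine signalling that was listed at 0 in WT and at 23.4 in UUO urine. NONRATG006542 (chr10:106611444-106611998), 747 bp from the 3′ side of Socs3, had 7.78 (7 fragments) in WT and 27.1 (25 fragments) in UUO urine. NONRATG005297, an 11-entry locus on the other side at 18952 bp, had 23.3 and 9.77. The 2 loci around this gene thus differed in direction.

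For the kidney injury and stress list 3 of 12 loci were detected, for the kidney tubule list 1 of 4 and for the urothelium list 1 of 3, all of them higher in UUO urine and all listed at 0 in WT. Of all 3315 detected loci with a gene in the window, 1848 were higher. NONRATG023225, 108 bp from the transcription factor gene Jun, had 2.102 in UUO urine while Jun went from 79.0 in WT to a listed 0 in UUO, and NONRATG023226, farther off, had 1.11. NONRATG005062, 4965 bp from the keratin gene Krt19, had 2.33 on 3 fragments, with 357 in WT and 752 in UUO urine for Krt19. NONRATG021279, 15975 bp from the water channel gene Aqp1, had 1.49 on 7 fragments, and NONRATG028152, 15575 bp from the basal keratin gene Krt5, had 2.74 on 5. Of the 12 genes of the lncRNA list 3 were in the table, and no locus was assigned 1 of them as its nearest gene (H19 shares its position with the miR-675 gene counted above). Between 22.2% and 33.3% of the loci beside the 5 lists with loci were detected, and 43.4% of all 7635 loci with a gene in the window.

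Detection varied among chromosomes. Chromosome 10 had the highest share, with 47.0% of 645 loci detected in UUO and 24.8% in WT urine, and chromosome X the lowest in UUO urine, with 26.0% of 339 loci and 13.3% in WT. The loci stood in 4871 stretches between genes, 2694 of which held 1 locus and 344 of which held 5 or more. The fullest, between Plekha3 and Sestd1, held 21 loci, of which 3 were detected in UUO and 0 in WT urine.

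Several markers of the cells that urine can hold differed between the libraries. The 4 uroplakins of the urothelium list were at 82.4 to 312 FPKM in WT and at 136 to 466 in UUO urine, with Upk1b lower in UUO (216 and 136) and the other 3 higher. The basal keratin gene Krt5 was listed at 0 in WT and at 51.8 in UUO urine. Of the proximal tubule markers Lrp2 had 38.7 and 5.995 and Slc34a1 32.7 and 6.24, while Aqp1 differed little (26.7 and 25.2). The 3 genes of that list summed to 98.1 in WT and 37.5 in UUO. Loop and distal tubule markers summed to 56.2 and 49.5, with Umod and Slc12a1 lower in UUO and Slc12a3 higher (12.7 and 14). Collecting duct markers summed to 135 and 156, with Aqp2 lower in UUO (50.2 and 35.0) and Aqp3 higher (85.1 and 121). The part of these shifts in the values of the loci was not tested. The red blood cell list summed to 2453 in WT and 77590 in UUO urine, with all 3 genes higher in UUO, and the 4 leukocyte genes were listed at 0 in WT and summed to 110 in UUO. The part of blood RNA in the loci listed only in UUO urine was not tested. Gapdh was at 0.406 and 0.367, but the table places that entry on chromosome 16 and RefSeq places the gene on chromosome 4, so its level was not read as that of a housekeeping gene.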

How the data were processed

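RNA-seq of rat urine, 1 WT (sham) and 1 UUO library, was analysed. Per the submitters' processing notes, tools were Bowtie2 2.0.6, TopHat2 2.0.9, Cufflinks 2.1.1 and Cuffdiff 2.1.1, with build rn5. Ribosomal RNA removal and strand-specific, paired-end libraries were described for kidney. For urine the methods name a column kit and the labels Trizol. The authors deposited FPKM per entry and library, with their own log2 fold changes, p-values and q-values, which were not used. The condition names UrRf and Urc were read as UUO and WT from the series title and the study's urine lists, and every direction rests on this. An exact 0 can be a failed estimate, so such values are called listed at 0, and no fold is given.

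FPKM of NONRATG and NONRATT entries was summed per locus. NM accessions at 2 of the loci were not summed. At detected loci with 1 entry of each kind, the entries mostly shared the FPKM about equally (a median of 50.1% for NONRATG in UUO and in WT). The NONRATG share was within 45 to 55% at 92.1% of these loci in UUO and at 76.8% in WT. At some loci of high level 1 entry held nearly all, as at NONRATG004572 (99.5% in UUO, 99.7% in WT). The share could also differ between libraries, as at NONRATG004553 (98.5% in WT, 50.2% in UUO). At loci with more entries the sum adds values of entries of unknown length. Changes were differences of log2(FPKM + 1), which understates low loci, counted at a size of 1 or more among loci at 1 FPKM or more in either library. With 1 library per group no test was possible. The nearest gene was the closest number-only entry in the table's coordinates. Symbols came from RefSeq GRCr8 (16329 of 16484 IDs matched), used for names, gene order and strand. Fragments were recovered by fitting 1 normalising total and 1 length offset (128 bp in WT, 176 bp in UUO) per library. High fragment counts are approximate. Overlapping genes and near-identical copies make FPKM uncertain.

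Named loci were the 8 of greatest difference in each direction among those at 1 or more in both libraries, the 6 highest listed at 0 in each library, the 8 of highest mean level, and the 12 of greatest FPKM beside genes of the fixed lists, of which those under 1 FPKM are not printed. The choice of loci beside microRNAs and 5′ promoters was made with their values in view. The loci and lists were chosen with earlier results of these data known. Scripts were tested on simulated data. Python 3.11.15, pandas 2.3.3, numpy 2.4.6 and SciPy 1.17.1 were used. Alternatives varied the limit, pseudocount, fold, scaling, span, entries and neighbours. Sequences of the loci themselves were not analysed here.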

Additional observations from a re-analysis of the deposited data

How the results depend on the processing

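No paired analysis was possible because WT and UUO urine had a lone library each. Of 151 values under alternatives, 76 stayed within 1.5 times the reported count or within the 95% interval of the reported share or median, 62 moved and 13 turned to the other side of 50% or of 0. These intervals were computed across loci as if independent, which they are not. They served only as a yardstick for alternatives and hold no spread between animals or libraries. Leaving out entries with the status FAIL was not run, since 0 entries carry it. Where a cause is not stated below, the cause was not tested. With FPKM above 0 as the limit, 7420 loci were detected in UUO urine, 2291 in both libraries and 6060 with a gene in the window, and 52.4% of changed loci went the same way as their gene. With a limit of 5 FPKM, 1021 loci were detected in WT, 839 in UUO, 542 in both and 1180 with a gene, 299 were higher, 32.3% of changed loci were higher and 65.2% went with their gene. A pseudocount of 0.1 gave 72.8% higher and a median of -0.89, and a pseudocount of 10 gave 87 higher, 286 lower, 23.3% higher, a median of -0.30 and 63.8% with their gene. At 4-fold, 524 were higher and 295 lower, with 64.0% higher. With equal FPKM sums, 3542 were higher, 87.8% of changed loci, the median was -0.27 and 53.4% went with their gene. With the median ratio of genes, 5740 were detected in UUO, 4212 were higher and 414 lower, 91.1% higher, with a median of -0.088 and 59.4% with their gene. With equal upper quartiles, 7314 were detected in UUO and 5975 with a gene, 6745 were higher and 124 lower, 98.2% higher, with a median of 1.42 and 91.4% with their gene. With a minimum span of 1000 bp, 2331 were detected in UUO and 1195 were higher, 69.4% of changed loci, with a median of -0.65. With the highest entry of each locus, 2051 were detected in UUO and 2169 with a gene, 1042 were higher, 60.5% of changed loci, and 51.4% went with their gene. NONRATG entries alone gave 1682 in UUO, 770 in both, 1809 with a gene, 896 higher, 62.4% higher and 50.5% with their gene, and NONRATT entries alone gave 2118 in UUO, 1076 higher, 66.5% higher and a median of -0.43. At least 5 kb from a gene there are fewer loci by construction, with 876 detected in WT, 2063 in UUO, 675 in both and 1749 with a gene, 1335 higher, 406 lower and 76.7% higher. A window of 10 kb left 1928 detected loci with a gene. The nearest gene with 1 FPKM or more in both libraries went with 41.2% of changed loci.

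After the data had been seen, loci with 1 entry of each kind and at least 10 fragments in either library were counted alone, which changes 2 choices together. The entry choice alone left 1105 loci detected in WT urine. Both together gave 1039 in WT, 1277 in UUO, 851 in both, 1291 with a gene, 434 higher, 46.3% higher, a median of -0.83 and 60.5% with their gene. Without loci of 3 or more entries 76.5% of changed loci were higher. Direction of single loci rests on 1 library per group, and levels under 3 fragments are limited by depth.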
